A study of Mus with 12 samples.

Results

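S100a8, S100a9, S100a4, S100a6, S100a10 and S100a11 encode small calcium-binding proteins of the S100 family. These 6 genes were chosen by name among the 25247 genes of a blood RNA-seq table, and all 6 passed the filter on low values that left 5527 genes for testing.

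S100 proteins carry a pair of EF-hand loops that bind calcium, change shape and then dock onto other proteins. S100A8 and S100A9 pair into calprotectin, which fills the cytoplasm of neutrophils and is also found in monocytes, and which acts as an alarmin when released, through TLR4 and the receptor RAGE. The other members work mainly inside cells: S100A10 lacks calcium binding and is held by annexin A2, S100A11 partners annexin A1, S100A6 (calcyclin) binds the calcyclin-binding protein, and S100A4 (metastasin) binds non-muscle myosin.

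Blood was taken on day 30 from female BALB/c mice bought at 6 weeks of age, and 3 libraries were sequenced in each of 4 groups. The Solvent group received only vehicle, acetone and olive oil at 3 to 1, on the back and right ear. The DNCB group was sensitised there with 1% of the contact allergen 2,4-dinitrochlorobenzene and then challenged with 0.5%, which gives atopic dermatitis-like skin lesions. The scMSC and scivMSC groups received the same DNCB course together with 4 doses of 2000000 human umbilical cord mesenchymal stem cells (MSCs), placed under the skin beside the lesion in scMSC and divided between that site and the tail vein in scivMSC. No group received MSCs without DNCB. The labels and the study's methods do not say whether a library held blood of a single mouse, so p-values measure the spread between libraries. In bulk blood, fewer cells of a type and less RNA per cell cannot be told apart.

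Levels are FPKM, the number of fragments scaled by gene length in kilobases and by 1e6 library fragments, so they can be compared between genes. Libraries held 52.2e6 to 65.1e6 estimated counts, and haemoglobin genes made up 91.3% to 95.6% of the summed FPKM of each library. Fold changes are on the log2 scale, from edgeR's quasi-likelihood test on the counts scaled to library totals. Genes were called higher or lower at a Benjamini-Hochberg adjusted p below 0.05 together with a change of more than 2-fold. On this scale the median log2 fold change of all tested genes was 0.06 for DNCB against Solvent. It was -0.63 for scMSC and -1.53 for scivMSC, each against DNCB. TMM scaling, which centres the libraries on the bulk of genes, moved these medians to -0.09, 0.06 and 0.04, so TMM values are given for the members where they differ in call or sign. With haemoglobin left out, the medians over 5523 genes were -0.099, -0.25 and -0.99.

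All 6 genes lie on chromosome 3 of the table's annotation, as gene models that overlap no other listed gene. S100a4 (ENSMUSG00000001020) spans bases 90603771 to 90606045 on the plus strand and S100a6 (ENSMUSG00000001025) follows after 6836 bases, from 90612882 to 90624181 on the plus strand. S100a8 (ENSMUSG00000056054) occupies 90668978 to 90670035 on the plus strand. S100a9 (ENSMUSG00000056071) lies 22596 bases further on, from 90692632 to 90695721 on the minus strand, so the partners of calprotectin are neighbours on opposite strands. S100a11 (ENSMUSG00000027907; 93520488 to 93526287) and S100a10 (ENSMUSG00000041959; 93555080 to 93564643) sit apart from these 4 by 2.82 megabases and are both on the plus strand.

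In DNCB blood, 4 of the 6 genes were called higher than in Solvent and none was called lower. They were S100a8, S100a9, S100a6 and S100a11. Of all tested genes, 15.6% were called higher and 4.87% lower in this comparison. The median log2 fold change was 3.48 over the 6 genes and 0.06 over all tested genes.

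S100a9, the more abundant calprotectin transcript, had FPKM values of 238, 279 and 132 in Solvent, against 3792, 5933 and 3833 in DNCB. The groups were far from overlapping. The change was 20.9-fold, a log2 fold change of 4.39 with an SE of 0.38 and an adjusted p of 7.47e-07.

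S100a8, its partner, had FPKM values of 80.5, 92.7 and 41.6 in Solvent and 1713, 2661 and 1761 in DNCB. Each DNCB library stood above every Solvent library, and replicate 2 of DNCB was the highest for both transcripts. The change was 28.6-fold, a log2 fold change of 4.84 with an SE of 0.41 and an adjusted p of 7.16e-07.

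Together the calprotectin transcripts took 0.381%, 0.597% and 0.260% of the FPKM outside haemoglobin in Solvent. Their share was 7.00%, 9.22% and 7.36% in DNCB. Ranked by FPKM among genes other than haemoglobin, S100a9 stood between places 1 and 3 in the DNCB libraries and between 28 and 51 in Solvent. S100a8 stood between places 5 and 7 in DNCB and between 69 and 159 in Solvent.

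S100a11 (the annexin A1 partner) gave FPKM values of 51.0, 40.0 and 28.4 in Solvent and 328, 497 and 329 in DNCB, a log2 fold change of 3.27 with an SE of 0.39 and an adjusted p of 1.97e-05. For S100a6 (calcyclin) the Solvent values were 11.4, 8.96 and 6.23 FPKM and the DNCB values 103, 127 and 112, a log2 fold change of 3.68 with an SE of 0.43 and an adjusted p of 1.69e-05. Neither gene overlapped between the groups.

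S100a4 and S100a10 did not pass the test. S100a4, which is expressed in many leukocytes and fibroblasts, had FPKM values of 15.0, 14.1 and 5.73 in Solvent and 13.2, 16.7 and 12.6 in DNCB, a log2 difference of 0.29 (SE 0.46, adjusted p = 0.717). S100a10, the annexin A2 ligand, had 71.1, 53.3 and 38.0 in Solvent and 57.4, 65.8 and 44.8 in DNCB, a log2 difference of 0.05 (SE 0.26, adjusted p = 0.92) that was -0.09 under TMM scaling. The libraries of the groups intermingled for both genes.

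**Figure D1:**
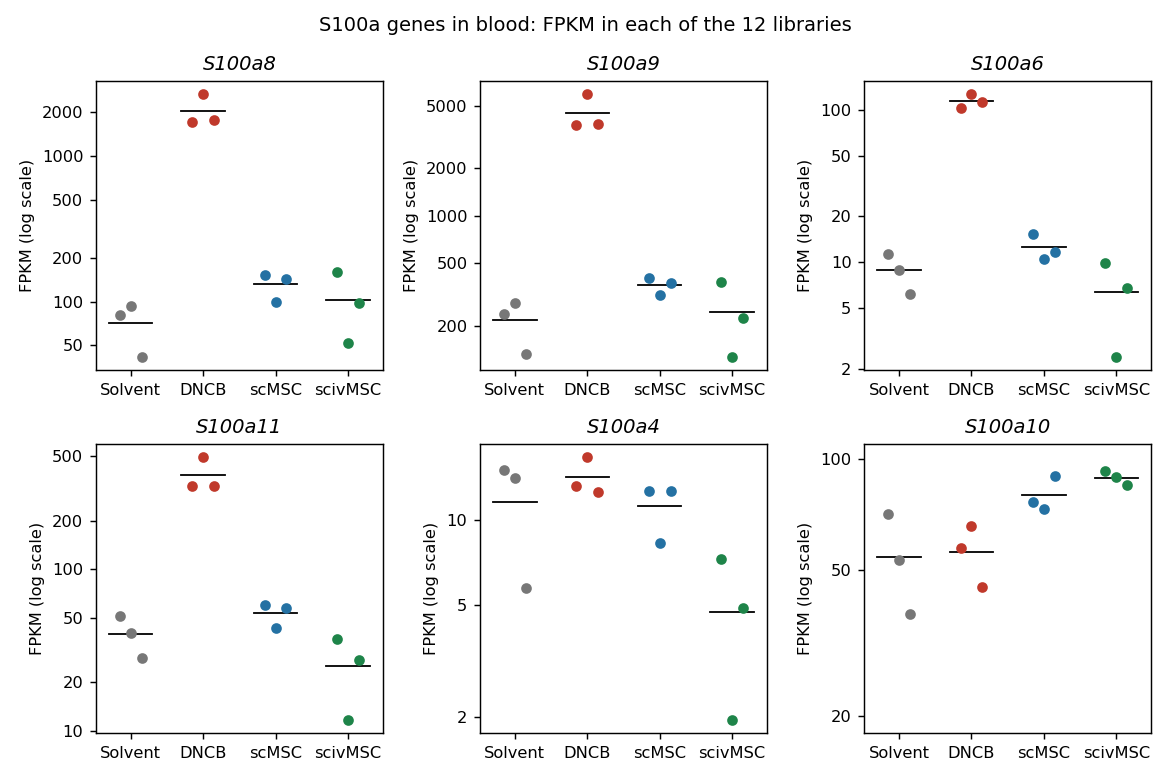
FPKM (log scale) of each S100a gene in each library, by group, with points for libraries and a bar for the mean of 3. S100a8, S100a9, S100a6 and S100a11 stand apart in the 3 DNCB libraries (S100a6 at 103 to 127 FPKM against 2.39 to 15.4 in the other 9), whereas S100a4 is lowest in scivMSC and S100a10 highest in the MSC groups.

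The order of levels changed with the group. In Solvent the mean FPKM ran from S100a9 (216 ± 75.9, SD, n = 3) through S100a8 (71.6 ± 26.7), S100a10 (54.1 ± 16.6) and S100a11 (39.8 ± 11.3) to S100a4 (11.6 ± 5.11) and S100a6 (8.87 ± 2.60). The ranges of S100a8 and S100a10, of S100a10 and S100a11, and of S100a4 and S100a6 overlapped there. In DNCB the order was S100a9 (4519 ± 1225), S100a8 (2045 ± 534), S100a11 (385 ± 97.3), S100a6 (114 ± 12.1), S100a10 (56.0 ± 10.6) and S100a4 (14.2 ± 2.22), and no neighbours overlapped. By mean FPKM S100a6 thus moved from the last place to the fourth. Its last place depends on the gene lengths behind FPKM, 1452 bases for S100a6 and 621 for S100a4. In counts S100a6 was above S100a4 in each Solvent library.

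In the scMSC group the order was S100a9 (363 ± 43.9 FPKM, SD, n = 3), S100a8 (132 ± 28.2), S100a10 (79.7 ± 8.99), S100a11 (53.7 ± 8.98), S100a6 (12.5 ± 2.59) and S100a4 (11.2 ± 2.50), with only the last pair overlapping. In scivMSC it was S100a9 (243 ± 128), S100a8 (103 ± 54.0), S100a10 (88.9 ± 3.95), S100a11 (25.2 ± 12.7), S100a6 (6.36 ± 3.77) and S100a4 (4.70 ± 2.67). S100a9 with S100a8, S100a8 with S100a10, and S100a6 with S100a4 overlapped in scivMSC. Replicate 2 of scivMSC was the lowest of its group for every one of these genes except S100a10.

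The same 4 genes that were higher in DNCB were called lower in scMSC than in DNCB, and none was called higher. Of all tested genes, 24.9% were called lower and 1.27% higher. The median log2 fold change was -3.02 over the 6 genes and -0.63 over all tested genes. This comparison shares its DNCB libraries with the one before, so a high DNCB value enters both. S100a8, S100a9 and S100a11 are also on the study's supplementary list of genes higher in DNCB than in the MSC groups, which it drew up with these libraries, so their direction against DNCB is not independent evidence in either MSC group.

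S100a8 measured 153, 99.5 and 143 FPKM in scMSC and S100a9 measured 399, 314 and 375. Their log2 fold changes against DNCB were -3.97 (SE 0.39) and -3.65 (SE 0.37), each with an adjusted p of 1e-05. The scMSC values of both transcripts lay far below the lowest DNCB value and did not overlap with it. S100a6 measured 15.4, 10.5 and 11.6 FPKM, a log2 fold change of -3.19 with an SE of 0.42 and an adjusted p of 0.000109. S100a11 measured 60.4, 43.5 and 57.2 FPKM, a log2 fold change of -2.85 with an SE of 0.38 and an adjusted p of 0.000122.

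S100a4 measured 12.6, 8.31 and 12.6 FPKM in scMSC, a log2 difference from DNCB of -0.35 (SE 0.46, adjusted p = 0.585), and its sign turned under TMM scaling (0.32). S100a10 measured 76.2, 72.9 and 89.9 FPKM, above each DNCB library. Its log2 difference was 0.50 (SE 0.26, adjusted p = 0.167), and it was called higher under TMM scaling at 1.20 (adjusted p = 0.00269).

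In scivMSC, 5 of the 6 genes were called lower than in DNCB and none was called higher. Here 62% of all tested genes were called lower and 1.43% higher, so a call of lower is the usual outcome on this scale. The median log2 fold change was -4.05 over the 6 genes and -1.53 over all tested genes. S100a8 measured 160, 51.8 and 98.5 FPKM and S100a9 measured 380, 126 and 223, with log2 fold changes of -4.31 (SE 0.40, adjusted p = 2.57e-06) and -4.22 (SE 0.38, adjusted p = 2.15e-06). S100a6 (9.89, 2.39 and 6.79 FPKM) and S100a11 (36.8, 11.7 and 27.3 FPKM) had log2 fold changes of -4.16 (SE 0.44) and -3.93 (SE 0.40). Relative to the median of all genes, these 4 changes were -2.78, -2.69, -2.63 and -2.40.

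S100a4 was the fifth gene called lower, at 7.29, 1.95 and 4.85 FPKM and a log2 fold change of -1.59 with an SE of 0.48 and an adjusted p of 0.00773. Relative to the median of all genes its change was -0.06, and under TMM scaling it was -0.09 and not called (adjusted p = 0.799). S100a10 measured 92.7, 89.2 and 84.8 FPKM, above every DNCB library. Its log2 difference of 0.66 (SE 0.26, adjusted p = 0.0335) was under the 2-fold limit, and under TMM scaling it was called higher at 2.38 (adjusted p = 1.41e-05). In this comparison TMM scaling also put the median of 8 platelet markers at 1.93 and that of 6 tested erythroid markers at 2.20.

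Because the scaling moved the split of calls over all genes, the TMM counts are given for context. Under TMM, 888 genes were higher and 635 lower in DNCB than in Solvent. Against DNCB, 483 genes were higher and 681 lower in scMSC, and 1137 were higher and 1043 lower in scivMSC. The 4 genes S100a8, S100a9, S100a6 and S100a11 were called in the same direction in these 3 comparisons under each of the 21 alternatives tried.

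**Figure D2:**
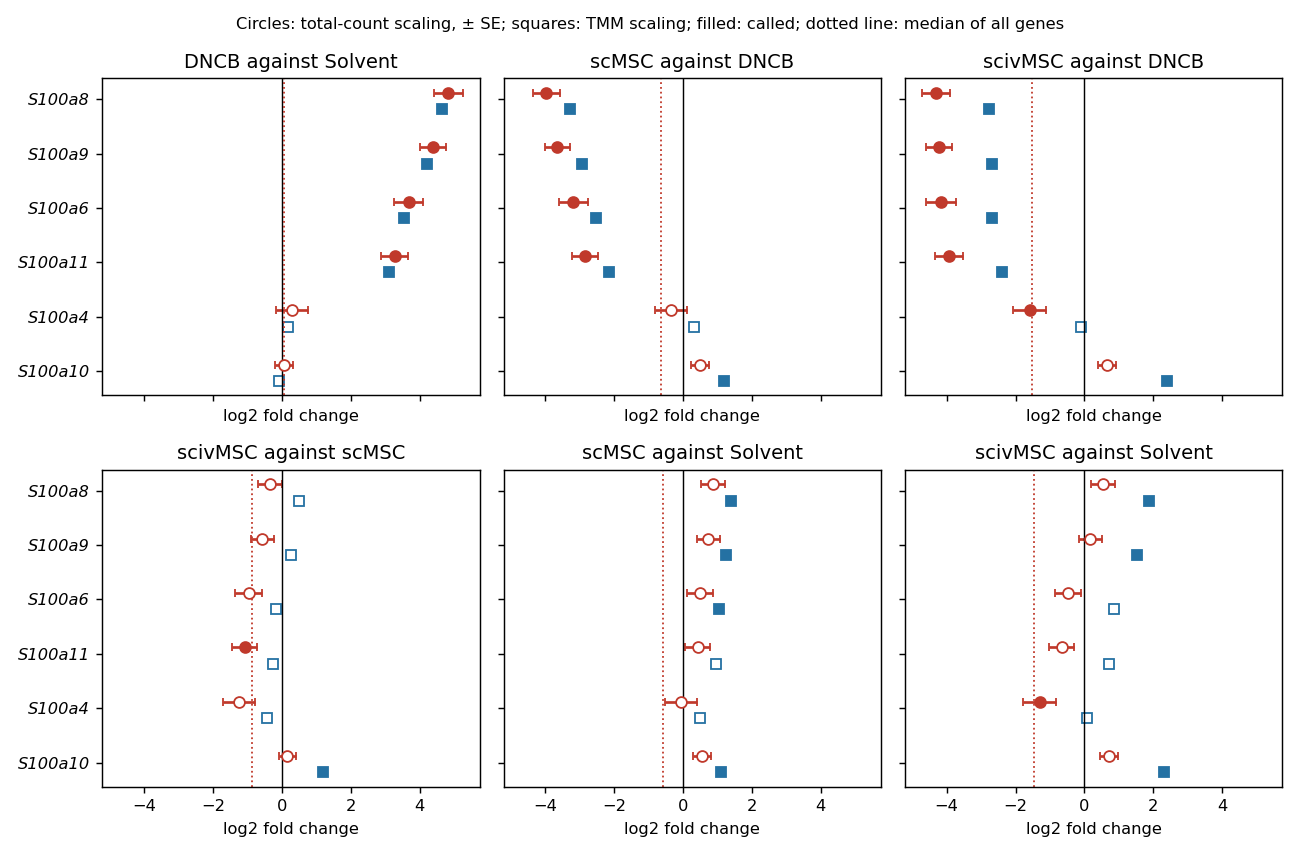
Log2 fold change of each S100a gene in 6 comparisons; red circles with SE bars use total-count scaling, blue squares TMM scaling, filled symbols are called, and the dotted line is the median of all tested genes. S100a10 lies to the right of that line wherever an MSC group is compared (0.16 against a median of -0.87 in scivMSC against scMSC), and S100a4 lies close to it in scivMSC against DNCB.

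The routes of injection were compared directly in scivMSC against scMSC. S100a11 was the only member called, at a log2 fold change of -1.08 with an SE of 0.36 and an adjusted p of 0.0343. Its 3 scivMSC values all lay below the 3 scMSC values, and so did those of S100a4 and S100a6. The share of all tested genes that separate in this way was not computed. Over all tested genes 30.4% were called lower and 0.344% higher, and the median log2 fold change was -0.87. S100a11 was at -0.24 and not called under TMM scaling (adjusted p = 0.349), and it was not called when only these 6 libraries were fitted (adjusted p = 0.083). That smaller fit called 0 genes higher and 4 lower of the 5527. The call was also lost without scMSC replicate 1, scMSC replicate 3, scivMSC replicate 2 or scivMSC replicate 3, with adjusted p from 0.0751 to 0.105.

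The remaining members did not pass in that comparison. S100a4 differed by -1.24 (SE 0.47, adjusted p = 0.0541) and S100a6 by -0.97 (SE 0.39, adjusted p = 0.0663) on the log2 scale. S100a8 differed by -0.34 (SE 0.35) and S100a9 by -0.57 (SE 0.33), and both had the opposite sign under TMM scaling, at 0.49 and 0.25. S100a10 differed by 0.16 (SE 0.26, adjusted p = 0.641) and was called higher under TMM scaling, at 1.18.

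Against Solvent, none of the 6 genes was called in scMSC, where 0.326% of all tested genes were called higher and 0.326% lower. At an unadjusted p under 0.05, without a fold limit, edgeR placed 2 of the 6 higher and 0 lower. The share of all tested genes at that looser limit was not computed, so this count has no background. By the usual limits on adjusted p and fold, limma called 0 of the 6. Over all tested genes limma called 44 higher and 167 lower on log2(FPKM + 1), and 26 higher and 30 lower on log2(FPKM + 0.1). By those limits DESeq2 called 4 higher, among 451 genes higher and 105 lower. DESeq2 scales libraries in its own way, which put the median of all genes at -0.04. The log2 differences were 0.87 (SE 0.35, adjusted p = 0.139) for S100a8, 0.74 (SE 0.33, adjusted p = 0.163) for S100a9, 0.55 for S100a10, 0.49 for S100a6, 0.42 for S100a11 and -0.06 for S100a4 (0.49 under TMM scaling). For S100a8, S100a9 and S100a10 the 3 scMSC libraries stood above the 3 Solvent libraries, and the other members overlapped. The share of all tested genes that separate in this way was not computed, so this separation is given as values only. The median of all genes was -0.59, and under TMM scaling S100a8 (1.38), S100a9 (1.26), S100a10 (1.11) and S100a6 (1.03) were called higher, among 403 genes higher and 67 lower.

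In scivMSC against Solvent, S100a4 was called lower, at a log2 fold change of -1.30 with an SE of 0.47 and an adjusted p of 0.0238, in a comparison that called 59.2% of all tested genes lower and 2.59% higher. The median of all genes was -1.47, and under TMM scaling S100a4 was at 0.07. The call was lost without Solvent replicate 1, Solvent replicate 2, scivMSC replicate 2 or scivMSC replicate 3, with adjusted p from 0.0537 to 0.092. S100a8 (0.53, SE 0.35), S100a9 (0.17, SE 0.33), S100a6 (-0.48, SE 0.39), S100a11 (-0.66, SE 0.36) and S100a10 (0.71, SE 0.26) were not called. TMM scaling called S100a8 (1.88), S100a9 (1.51) and S100a10 (2.30) higher, among 1240 genes higher and 741 lower, and turned the sign of S100a6 (0.87) and S100a11 (0.72).

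The ratio of S100a8 to S100a9 within a library does not depend on the scaling of libraries. It was 0.339, 0.332 and 0.315 in Solvent and 0.452, 0.448 and 0.459 in DNCB. In scMSC it was 0.382, 0.317 and 0.381, and in scivMSC it was 0.420, 0.411 and 0.442. The DNCB libraries thus held more S100a8 per S100a9 than every other library, the scivMSC libraries came next, and scMSC replicate 2 fell within the Solvent range. Over the 4 groups the exact permutation test returned p = 0.001364, with 504 of 369600 splits as extreme.

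On the log2 scale the mean ratio was -1.61 ± 0.055 (SD, n = 3) in Solvent, -1.14 ± 0.018 in DNCB, -1.48 ± 0.15 in scMSC and -1.24 ± 0.053 in scivMSC. DNCB exceeded Solvent by 0.46 and scivMSC exceeded Solvent by 0.37. With 3 libraries against 3 the exact two-sided permutation test cannot go below p = 0.1, which 5 of the 6 pairs reached (adjusted p = 0.12); scMSC against Solvent gave p = 0.3. Counting error alone, at 4 counts per fragment, was between 0.011 and 0.080 per library on this scale.

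**Figure D3:**
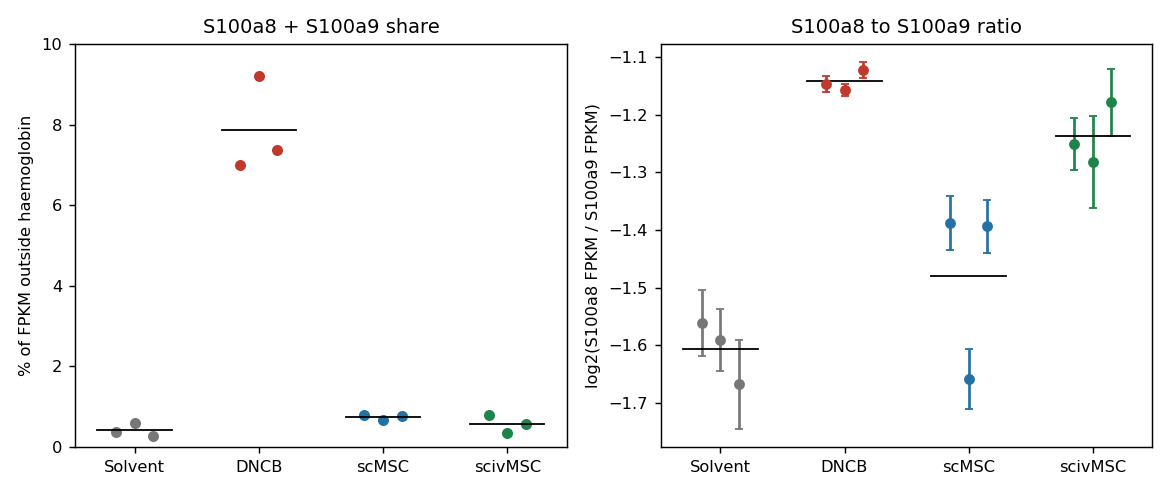
Left, percent of FPKM outside haemoglobin from S100a8 and S100a9 together; right, log2 of the S100a8 to S100a9 FPKM ratio with counting SE bars; points are libraries and black bars group means. The share is 7.00% to 9.22% in DNCB and under 1% elsewhere, and the ratio is highest in DNCB and lowest in Solvent.

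Profiles were compared as log2(FPKM + 1) centred on each gene's mean over the 12 libraries, and the distance is the root mean square difference. S100a8 and S100a9 were 0.19 apart, and S100a6 and S100a11 were 0.17 apart. The pairs between S100a8 or S100a9 and S100a6 or S100a11 were 0.37 to 0.64 apart. S100a4 and S100a10 lay 0.92 from each other and 1.15 to 2.11 from the rest.

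The search for nearest genes left out the 6 members and genes with provisional names (Gm, Rik or LOC symbols and Ensembl identifiers). Among the tested genes kept, those nearest to S100a8 were Retnlg (0.22), a neutrophil secreted protein, Cstdc5 (0.30), a stefin-like protease inhibitor, and Anxa1 (0.31). Those nearest to S100a9 were Anxa1 (0.20), the formyl peptide receptor Fpr2 (0.22) and the chitinase-like Chil1 (0.23). Again among the genes kept, S100a6 lay nearest to the gelatinase Mmp9 (0.19), the haemoglobin scavenger Hp (0.20) and the chemokine receptor Cxcr2 (0.27). Among those genes S100a11 lay nearest to the methionine sulfoxide reductase Msrb1 (0.18), Ifitm2 (0.22) and Cxcr2 (0.22).

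The neighbours of the remaining members, searched with the same genes left out, were of another kind. S100a4 was nearest to Lgals1 (0.28), which encodes galectin-1, then to Tbc1d10c (0.29) and Smarcd2 (0.29). S100a10 was nearest to Pecam1 (0.087), an adhesion molecule of endothelium, platelets and leukocytes, then to Gng11 (0.13) and Ctla2a (0.13). Pecam1 averaged 5.51 FPKM in Solvent, 5.45 in DNCB, 8.62 in scMSC and 9.63 in scivMSC.

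Cell type markers moved with these genes. Of all tested genes, 15.6% were called higher in DNCB than in Solvent. Against DNCB, 24.9% of all tested genes were called lower in scMSC and 62% in scivMSC. All 10 neutrophil markers (among them Ly6g, Ngp, Ltf and Cxcr2) were called higher in DNCB than in Solvent and lower in both MSC groups than in DNCB. Their summed FPKM ranged from 48.5 to 75.4 in Solvent, from 1575 to 2514 in DNCB, from 171 to 187 in scMSC and from 72.9 to 212 in scivMSC. None of the 10 was listed at 0 in a whole group. The part of neutrophil number in the changes of S100a8, S100a9, S100a6 and S100a11 was not tested.

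Set against the neutrophil sum of the same library, S100a8 had a mean ratio of 1.05 ± 0.19 (SD, n = 3) in Solvent, 1.09 ± 0.029 in DNCB, 0.742 ± 0.15 in scMSC and 0.732 ± 0.020 in scivMSC. The ratio of S100a9 was 3.20 ± 0.49 in Solvent, 2.40 ± 0.036 in DNCB, 2.05 ± 0.23 in scMSC and 1.73 ± 0.064 in scivMSC. S100a11 went from 0.599 ± 0.076 in Solvent to 0.205 ± 0.0062 in DNCB, and S100a6 from 0.133 ± 0.017 to 0.0622 ± 0.011. These ratios depend on the markers that weigh most in the sum, because the single markers differed widely: the ratio of mean FPKM in DNCB to Solvent ran from 8.97 for Csf3r and 11.3 for Cxcr2 to 91.6 for Ltf and 109 for Ngp.

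Monocyte, lymphocyte and platelet markers moved as well, beside 15.6% of all tested genes called higher and 4.87% lower in DNCB than in Solvent. Of 7 tested monocyte markers, 2 were called higher in DNCB than in Solvent, and the summed FPKM of the list ranged from 9.64 to 25.1 in Solvent, 28.0 to 51.3 in DNCB, 13.6 to 14.1 in scMSC and 9.34 to 10.5 in scivMSC. T cell markers summed to 56.1 to 92.8 in Solvent, 21.4 to 30.7 in DNCB, 28.9 to 39.2 in scMSC and 7.27 to 19.7 in scivMSC. All 8 were called lower in scivMSC than in scMSC, a comparison in which 30.4% of all tested genes were called lower. Their median log2 fold change there was -1.46 by totals and -0.63 under TMM scaling. B cell markers summed to 76.2 to 223 in Solvent, 23.3 to 56.8 in DNCB, 23.7 to 34.4 in scMSC and 8.41 to 15.9 in scivMSC. On this scale the S100a4 level and the summed levels of the monocyte, T cell and B cell lists were all lowest on average in scivMSC, where most genes were called lower than in DNCB. Under TMM scaling the median log2 fold change in scivMSC against DNCB was 0.68 for T cell markers (-0.84 by totals) and -0.01 for B cell markers (-1.69 by totals). In scMSC against DNCB the B cell median was 0.47 under TMM and -0.28 by totals, and in scivMSC against scMSC the neutrophil median was 0.77 under TMM and -0.04 by totals. The part of cell makeup in the S100a4 level was not tested.

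Platelet markers summed to 371 to 590 FPKM in Solvent, 590 to 800 in DNCB, 703 to 903 in scMSC and 723 to 841 in scivMSC, and 5 of 8 were called higher in DNCB than in Solvent. The most abundant of them, Pf4 and Ppbp, overlapped between Solvent and DNCB, as S100a10 did. Pf4 measured 234 to 247 FPKM in DNCB, 338 to 464 in scMSC and 301 to 365 in scivMSC. It was thus, like S100a10, above DNCB in both MSC groups, but no other listed platelet marker was. Ppbp and most of the rest overlapped DNCB in both MSC groups. Gp9 and Gp1bb lay below DNCB in scMSC without overlap, with ratios of mean FPKM of 0.65 and 0.43, and overlapped DNCB in scivMSC. Pf4 and Ppbp were singled out after their values were seen, and the part of platelet RNA in the S100a10 level was not tested. The summed FPKM of the erythroid markers overlapped between all groups, at 4513 to 5784, and came mostly from Alas2 (group means of 4293 to 4625 FPKM). Single erythroid markers did not all overlap, as Slc4a1 measured 62.8 to 82.5 FPKM in scivMSC and 28.9 to 54.0 in scMSC. None of the 6 tested erythroid markers was called by totals in any comparison. In scivMSC against DNCB the platelet median log2 fold change was 1.93 under TMM (0.22 by totals) and the erythroid median 2.20 (0.52 by totals). In scMSC against DNCB these medians were 0.46 (-0.26 by totals) and 0.70 (0.08 by totals). NK cell markers summed to 24.9 to 30.3 in Solvent, 8.79 to 12.3 in DNCB, 4.50 to 13.01 in scMSC and 4.03 to 11.8 in scivMSC. Eosinophil and basophil markers summed to 1.56 to 2.55 in Solvent, 7.13 to 8.10 in DNCB, 2.39 to 5.80 in scMSC and 1.96 to 6.03 in scivMSC. Their sum too was thus highest in DNCB, with Epx listed at 0 in the whole Solvent group. Only 3 of these 8 markers passed the filter. By group mean, Prg2, Ccr3 and Epx were not highest in DNCB, whereas the others were. Prg2 averaged 0.298 FPKM in DNCB, 1.44 in scMSC and 1.92 in scivMSC.

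**Figure D4:**
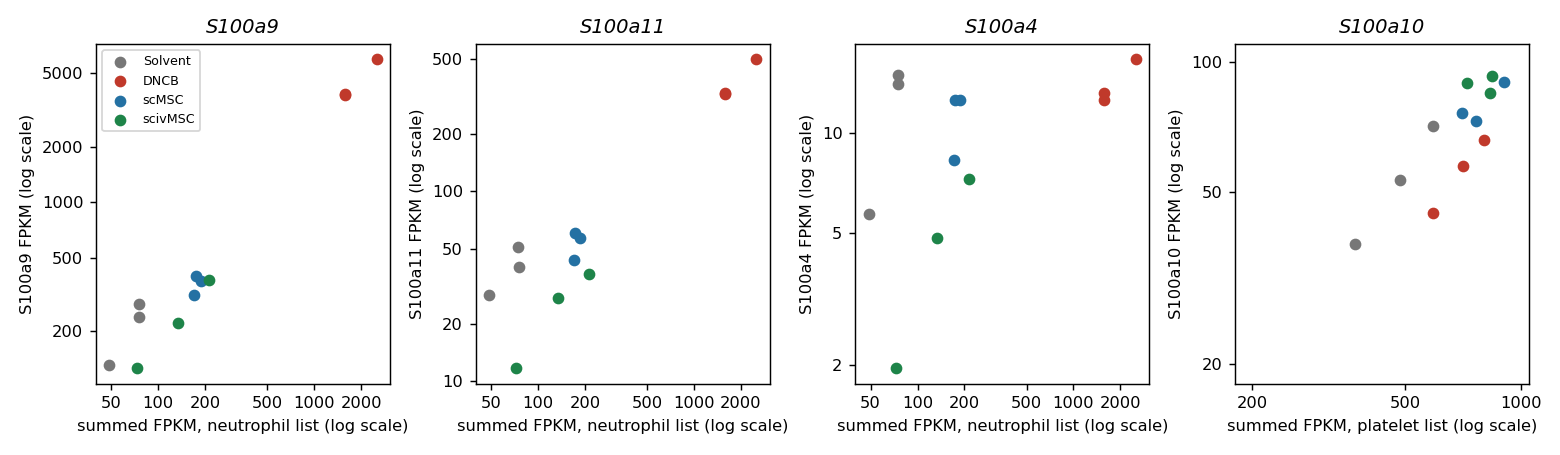
FPKM of S100a9, S100a11 and S100a4 against the summed FPKM of 10 neutrophil markers, and of S100a10 against 8 platelet markers, per library (all axes log scale, colours are groups). S100a9 climbs with the neutrophil sum, whereas S100a4 stays at 12.6 to 16.7 FPKM in DNCB libraries whose neutrophil sum reaches 1575 to 2514.

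Of 12 further S100 genes, 9 were in the table and 2 passed the filter. S100a1, known from heart and skeletal muscle, measured 21.7 to 34.0 FPKM in Solvent, 28.3 to 34.5 in DNCB, 36.0 to 45.0 in scMSC and 42.0 to 53.7 in scivMSC. S100a13 measured 4.70 to 11.02 FPKM over the 12 libraries. Neither was called in any of the 6 comparisons. Under TMM scaling both were called higher in scivMSC than in DNCB (2.23 for S100a1 and 1.54 for S100a13), than in scMSC (1.22 and 1.05) and than in Solvent (2.34 and 1.80), and S100a1 was also called higher in scMSC than in DNCB (1.01) and Solvent (1.11). The other 7 (S100a2, S100a3, S100a7a, S100a14, S100a16, S100b and S100g) stayed at or under 0.44 FPKM in every library.

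Among 7 receptor genes for S100 proteins, 5 passed the filter. Of these, 3 were called higher in DNCB than in Solvent and lower in both MSC groups than in DNCB. Of all tested genes, 15.6% were called higher in DNCB than in Solvent. Against DNCB, 24.9% of all tested genes were called lower in scMSC and 62% in scivMSC. Tlr4, the receptor that answers to calprotectin and endotoxin, measured 0.20 to 0.37 FPKM in Solvent and 1.15 to 2.14 in DNCB, a log2 fold change of 2.48 with an SE of 0.56 and an adjusted p of 0.00452. Its coreceptor Cd14 measured 0.50 to 1.41 FPKM in Solvent and 7.14 to 13.4 in DNCB, a log2 fold change of 3.21 with an SE of 0.76 and an adjusted p of 0.00614. Emb, which encodes embigin, a membrane glycoprotein related to basigin, measured 2.58 to 4.03 FPKM in Solvent and 8.02 to 11.1 in DNCB, a log2 fold change of 1.51 with an SE of 0.36 and an adjusted p of 0.00581.

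In scMSC against DNCB the log2 fold changes were -1.63 for Tlr4, -3.09 for Cd14 and -1.52 for Emb, of which Tlr4 and Emb were not called under TMM scaling. In scivMSC against DNCB they were -3.75, -4.14 and -2.77 and were called under both scalings. Cd36, a scavenger receptor, and Bsg, which encodes basigin, were not called in these 3 comparisons, though TMM scaling called both higher in scivMSC than in DNCB (2.21 and 2.17). Ager, which encodes RAGE, failed the filter at 0.090 to 1.33 FPKM, as did Ly96, the TLR4 partner MD-2, at 0 to 1.13 FPKM.

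All 9 genes for intracellular partners were tested, and in DNCB against Solvent 3 were called higher and 1 lower. Of all tested genes, 15.6% were called higher and 4.87% lower there. Anxa1, the partner of S100a11 and a mediator that restrains neutrophils, measured 4.69, 5.54 and 3.11 FPKM in Solvent and 82.9, 121 and 87.3 in DNCB, a log2 fold change of 4.45 with an SE of 0.39 and an adjusted p of 7.47e-07. Anxa2, the partner of S100a10, measured 8.32, 6.74 and 4.22 FPKM in Solvent and 36.0, 52.3 and 35.5 in DNCB, a log2 fold change of 2.68 with an SE of 0.35 and an adjusted p of 5.33e-05. S100a10 and Anxa2 thus differed in pattern, since S100a10 was within its Solvent range in DNCB.

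Anxa11, which binds S100a6, was also called higher in DNCB, with a log2 fold change of 2.19 (SE 0.39). Cacybp, the calcyclin-binding protein, was called lower, from 3.74 to 4.78 FPKM in Solvent to 1.10 to 1.99 in DNCB, a log2 fold change of -1.32 with an SE of 0.44 and an adjusted p of 0.0417. S100a6 and its partner therefore went in opposite directions in DNCB. Anxa5, Anxa6, Ahnak, Myh9 and Plgrkt were not called, and Myh9, the myosin bound by S100a4, had a log2 difference of 0.45 (SE 0.27, adjusted p = 0.254).

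In scMSC against DNCB, Anxa1 (-3.57), Anxa2 (-2.67) and Anxa11 (-2.07) were called lower and the other 6 partners were not called. Of all tested genes, 24.9% were called lower in that comparison. Under TMM scaling Ahnak was called higher there (1.304). In scivMSC against DNCB, 7 of 9 were called lower, in a comparison that called 62% of all tested genes lower. Of the 7, Anxa1 (-3.98), Anxa2 (-3.55) and Anxa11 (-3.47) were also called lower under TMM scaling. The other 4, Anxa5, Anxa6, Ahnak and Myh9, had log2 fold changes from -1.87 to -1.29 and were not called under TMM, which called Plgrkt higher (1.02). Cacybp differed from DNCB by 0.19 in scMSC and by -0.68 in scivMSC, without a call in either.

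**Figure D5:**
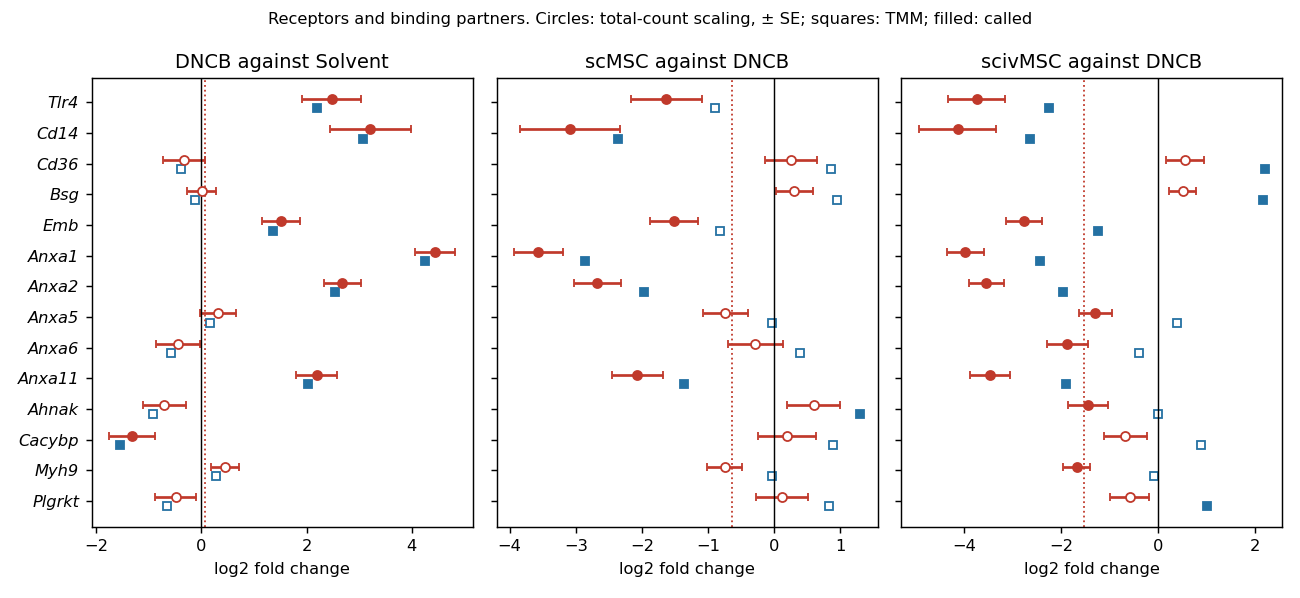
Log2 fold change of 5 receptor genes and 9 partner genes in 3 comparisons; red circles with SE bars use total-count scaling, blue squares TMM scaling, filled symbols are called, and the dotted line is the median of all tested genes. Tlr4, Cd14, Emb, Anxa1, Anxa2 and Anxa11 are right of 0 in DNCB against Solvent and left of 0 in both MSC comparisons.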

How the data were processed

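Total RNA of blood was sequenced, and the authors deposited a single table with an estimated count and an FPKM value per gene and library. The submitters' processing notes list HISAT2 2.0, StringTie 1.3.0, Bowtie 0.12.2 and the build mm8. The table's gene ends lie within 1000 bases of RefSeq GRCm38.p6 for 85.5% of 15948 genes compared and for 5 of the 6 members (S100a6 has a longer model), so the table's coordinates are given without a build. Whether reads were assigned by strand is not given in the sources used here. The authors' FPKM values have haemoglobin in the library total. The counts are whole numbers of which 29.0% of those from 1 to 12 equal 4, so a fragment may stand for about 4 counts (13.04e6 to 16.3e6 fragments per library). The bars on the S100a8 to S100a9 ratio cover counting error only. The SEs of fold changes come from the edgeR fit and include the spread between libraries. The lowest count of a member in a library was 64.

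Genes that reached 1 FPKM in 3 or more of 12 libraries were tested with edgeR 4.0.16 (R 4.3.3), quasi-likelihood, all 12 libraries in a fit with 4 group means, scaled by total counts. Calls needed a Benjamini-Hochberg adjusted p under 0.05 over all 5527 genes and a fold change over 2. The scripts were tested on simulated data. The ratio test used scipy 1.17.1.

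Members, gene lists and tests were chosen with earlier results of these data known. Genes named are the 6 members, the listed S100 genes, receptors and partners, the cell type markers, and 3 near genes per member. The latter are the nearest tested genes outside the members, leaving out Gm, Rik or LOC symbols and Ensembl identifiers. Alternatives were TMM scaling, haemoglobin left out, DESeq2 1.42.0, limma 3.58.1 on log2(FPKM + 1) and log2(FPKM + 0.1), no filter, a mean FPKM of at least 5, fits of the 2 groups compared, the replicate block, and each library left out. Promoter and protein sequences were not analysed here.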

Additional observations from a re-analysis of the deposited data

Results flagged for a closer look

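S100a11 differed between the MSC groups under the same DNCB course. Its log2 fold change in scivMSC against scMSC was -1.08 (SE 0.36, edgeR adjusted p = 0.0343). Each scivMSC library was below each scMSC library for S100a11, and also for S100a4 and S100a6, which were not called. The median of all tested genes in this comparison was -0.87. The call was lost in 9 of 21 alternatives: under TMM scaling (-0.24), with haemoglobin left out (-0.93), with DESeq2 (-0.21), with the filter on mean FPKM (adjusted p = 0.056), with only the 2 groups in the fit (adjusted p = 0.083), and without scMSC replicate 1, scMSC replicate 3, scivMSC replicate 2 or scivMSC replicate 3 (adjusted p from 0.0751 to 0.105). Over all 21 alternatives the log2 fold change ran from -1.45 to -0.21 and the adjusted p from 0.00432 to 0.353. Groups of 3 libraries are too small to test for a single outlying library.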

How the results depend on the processing

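Of 756 recomputed member fold changes (36 values under 21 alternatives), 675 kept direction and call, 17 lost a call, 35 gained one and 29 changed sign. The cause was not tested where the alternative's own construction does not show it. Members called higher became 1 in scMSC against DNCB (TMM, DESeq2), 1 in scivMSC against DNCB (TMM, DESeq2, haemoglobin left out), 1 in scivMSC against scMSC (TMM, DESeq2), 4 in scMSC against Solvent (TMM, DESeq2; 1 with haemoglobin left out) and 3 in scivMSC against Solvent (TMM, DESeq2; 1 with haemoglobin left out). Members called lower in scivMSC against scMSC became 0 (TMM, DESeq2, mean FPKM filter, 2-group fit) or 3 (both limma fits and the replicate block), and 0 to 4 with a library left out: 4 without scivMSC replicate 1, 2 without Solvent replicate 3, 0 without scMSC replicate 1 or 3 or scivMSC replicate 2 or 3. In scivMSC against Solvent they became 0 (TMM, DESeq2, haemoglobin left out, 2-group fit), and 0 to 2 with a library left out: 2 without scivMSC replicate 1, 0 without Solvent replicate 1 or 2 or scivMSC replicate 2 or 3.

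Signs changed as follows (log2, with the range over left-out libraries where that range holds the change). S100a10 in DNCB against Solvent was -0.086 (TMM), -0.11 (haemoglobin left out) and -0.048 (DESeq2), and -0.15 to 0.30 with a library left out; S100a4 there ranged from -0.034 to 0.53. S100a4 in scMSC against DNCB was 0.32 (TMM), 0.024 (haemoglobin left out) and 0.28 (DESeq2). S100a4 in scMSC against Solvent was 0.49 (TMM), 0.15 (haemoglobin left out), 0.48 (DESeq2) and 0.030 and 0.042 (limma), and -0.39 to 0.17 with a library left out. In scivMSC against scMSC, S100a8 was 0.49 and S100a9 0.25 under TMM, and 0.52 and 0.28 with DESeq2. In scivMSC against Solvent, S100a4 was 0.071, S100a6 0.87 and S100a11 0.72 under TMM, and 0.090, 0.88 and 0.75 with DESeq2; S100a9 ranged from -0.31 to 0.48 with a library left out.

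The replicate block changed no other count of calls. After group means were removed, same-numbered libraries were correlated at -0.20 to 0.17 over 18 pairs (median 0.040, 3 over 0.1). Differently numbered libraries of different groups were correlated at -0.22 to 0.14 over 36 pairs (median -0.027, 4 over 0.1). The labels do not say whether the numbers pair libraries. Such correlations within groups of 3 cannot exclude a shared batch. The ratio of S100a8 to S100a9 gave the same exact p from counts, and 6.494e-05 to 0.007013 with a library left out. Depth was lowest for S100a4, at 64 counts in scivMSC replicate 2, and receptor genes under 1 FPKM rest on few fragments.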
